A study of Mus musculus with 7 samples.

Results

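Neural lineage genes are described here: transcription factors of the neural plate and of neural progenitors, components of the Notch pathway, and proteins of the neuronal cytoskeleton, cell surface and synapse. The 35 genes were chosen by symbol from a list of such markers, with earlier results of these data known. All 35 were found among the 22180 genes measured by probe sets with 1 gene symbol. Total RNA was measured on 7 single-colour Affymetrix whole-transcript arrays of mouse cells, all of strain 129. Nanog knockout (KO) induced pluripotent stem cells (iPSC, somatic cells reprogrammed to a state like that of embryonic stem cells) had 2 arrays, wild-type (WT) iPSC 2, WT embryonic stem cells (ESC) 1, Nanog KO mouse embryonic fibroblasts (MEF) 1 and WT MEF 1. The study asks how pluripotent cells made without Nanog, a homeodomain factor of the pluripotency network, compare with WT ones. The labels list 3 media (for ESC, with 2i/LIF, and for MEF) and tie none of them to a sample, so a difference in medium between the genotypes cannot be told apart from the genotype. They call the iPSC arrays biological replicates, and do not say whether these are separate lines. The p-values therefore measure the spread between these samples. In fits with 1 coefficient per group, the spread of groups with 1 array is assumed to be that of the iPSC groups. Against WT pluripotent cells, WT ESC and WT iPSC formed 1 group, so their difference enters the spread. In iPSC against MEF, a genotype difference that is unlike in the cell types enters it.

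Neural induction begins when epiblast cells take on a neuroectodermal fate, marked by SoxB1 factors. Notch ligands and their Hes targets then hold part of the cells as progenitors while proneural basic helix-loop-helix factors drive others to become neurons. Neurons in turn make their own tubulins, microtubule-associated proteins, adhesion molecules and Hu RNA-binding proteins. Pluripotent cells are not neural, yet many genes of the neural lineage have CpG-rich promoters and can be read at a low or moderate level before any lineage choice.

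Nanog, the check of the labels, stood at a log2 level of 7.50 and 7.44 in KO iPSC, 12.84 and 12.76 in WT iPSC, 12.73 in WT ESC, 6.42 in KO MEF and 6.53 in WT MEF. Its KO minus WT pluripotent difference was -5.30 (SE 0.08). As a yardstick of background, the 95th percentile over 1390 receptor genes for odours and pheromones was taken on each array, and it lay between 6.30 and 6.50. Of the neural genes, 23 lay above it on all 7 arrays and 5 (Dll3, Dcx, Gap43, Nrcam and Elavl4) on none. The 10 pluripotency markers had medians of 11.6 on both KO iPSC arrays and between 11.5 and 11.8 on the WT pluripotent arrays. Across the 35 neural genes the gap between the 2 KO iPSC arrays had a median of 0.07 and a maximum of 0.59 (Ncam1). Between both WT iPSC arrays it had a median of 0.20 and a maximum of 1.15 (Sox1), and it exceeded 2-fold in Sox1, Olig2 and Crmp1. Fibroblast markers differed between the pluripotent arrays: 20 of them had a median log2 level of 7.29 and 7.13 in KO iPSC, 9.73 and 7.96 in WT iPSC, 8.69 in WT ESC, 12.4 in KO MEF and 11.9 in WT MEF.

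The promoters of genes that moved furthest in opposite directions are shown first, because their base composition is a feature that the choice of genes did not use. RefSeq promoter windows (250 bases before to 50 after a transcript start, GRCm38.p6) were at hand for 24 of the 35 genes. The first window of these genes held a median of 24.5 CpG dinucleotides and an observed over expected CpG ratio of 0.79, against medians of 7 and 0.38 over all 32851 windows. The windows of Olig2 (chr16:91225300-91225599, plus strand) and Tubb3 (chr8:123411303-123411602, plus strand) belong to genes that fell in KO iPSC. Those of Stmn3 (chr2:181314451-181314750, minus strand) and Ctnnd2 (chr15:30172284-30172583, plus strand) belong to genes that rose. Each is written 5′ to 3′ with CpG dinucleotides in capitals.
Olig2: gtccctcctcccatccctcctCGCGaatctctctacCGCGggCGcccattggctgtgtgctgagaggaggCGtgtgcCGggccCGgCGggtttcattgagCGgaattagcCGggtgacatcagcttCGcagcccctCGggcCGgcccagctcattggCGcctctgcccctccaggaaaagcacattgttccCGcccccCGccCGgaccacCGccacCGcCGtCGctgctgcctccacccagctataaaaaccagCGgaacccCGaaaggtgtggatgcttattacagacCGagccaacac
Tubb3: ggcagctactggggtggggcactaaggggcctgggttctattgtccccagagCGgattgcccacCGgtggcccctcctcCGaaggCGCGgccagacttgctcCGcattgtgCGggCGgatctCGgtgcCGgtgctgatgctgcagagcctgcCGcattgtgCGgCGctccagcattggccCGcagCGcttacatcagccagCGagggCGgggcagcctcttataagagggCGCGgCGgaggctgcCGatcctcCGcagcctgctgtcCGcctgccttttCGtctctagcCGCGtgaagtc
Stmn3: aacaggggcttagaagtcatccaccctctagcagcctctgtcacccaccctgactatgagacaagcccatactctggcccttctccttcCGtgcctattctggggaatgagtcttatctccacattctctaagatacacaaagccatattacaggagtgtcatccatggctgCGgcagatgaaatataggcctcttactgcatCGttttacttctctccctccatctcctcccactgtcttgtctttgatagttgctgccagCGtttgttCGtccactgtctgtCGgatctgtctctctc
Ctnnd2: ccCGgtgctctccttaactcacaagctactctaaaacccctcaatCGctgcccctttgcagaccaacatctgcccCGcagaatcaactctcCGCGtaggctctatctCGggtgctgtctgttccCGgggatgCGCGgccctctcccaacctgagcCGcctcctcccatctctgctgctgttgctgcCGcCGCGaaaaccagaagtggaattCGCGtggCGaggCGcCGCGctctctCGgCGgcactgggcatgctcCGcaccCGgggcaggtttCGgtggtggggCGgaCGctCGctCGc

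The windows of Olig2, Tubb3 and Ctnnd2 held 25, 26 and 28 CpG dinucleotides, and that of Stmn3 held 6. CpG-rich windows thus occurred among genes that fell and among genes that rose. The E-box CANNTG, bound by basic helix-loop-helix factors, was absent from the windows of Olig2 and Tubb3 and occurred once each in those of Stmn3 and Ctnnd2. Searched on both strands, it was present in 16 of the 24 genes and in 72.3% of all windows. For each motif a gene with several windows was counted if any of them matched. Its unit thus differs from that of the share of single windows. RE1 is the element bound by REST, a repressor of neuronal genes outside neurons. Its half-sites were likewise searched on both strands. The half-site CAGCACC occurred in the windows of Tubb3 and Ctnnd2 as its reverse complement GGTGCTG. It was present in 3 of the 24 genes and in 7.14% of all windows. The half-site GGACAG occurred in the window of Tubb3 as its reverse complement CTGTCC, and in 6 of the 24 genes and 22.2% of all windows. A match describes these letters and is not a measured binding site.

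The comparison of KO iPSC with the 3 WT pluripotent arrays asks how loss of Nanog is reflected in pluripotent cells. The neural genes moved in both directions: 9 of 35 fell, 3 rose and 23 did not pass (limma, Benjamini-Hochberg adjusted p over all 22180 genes, threshold 0.05). Over all genes 8.81% fell and 6.89% rose, 15.7% in either direction. Many of those genes are dim: without genes under background on all 7 arrays 22.4% passed, and 13 neural genes did (10 fell, 3 rose). The median difference was -0.24 over the neural genes and 0.03 over all genes. Both KO arrays lay below all 3 WT pluripotent arrays in 18 of the 35 genes and above them in 6, where 23.2% and 28.4% of all genes did so. The genes were chosen with earlier results of these data known, so these counts describe the set and do not test it. Olig2, Tubb3, Ncam1, Crmp1, Uchl1, Olig1, Dpysl3, Elavl3 and Bex1 fell, in order of size, and Stmn3, Ctnnd2 and Sox21 rose. Fewer cells that make a transcript and less transcript per cell cannot be told apart in such bulk samples.

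**Figure D1:**
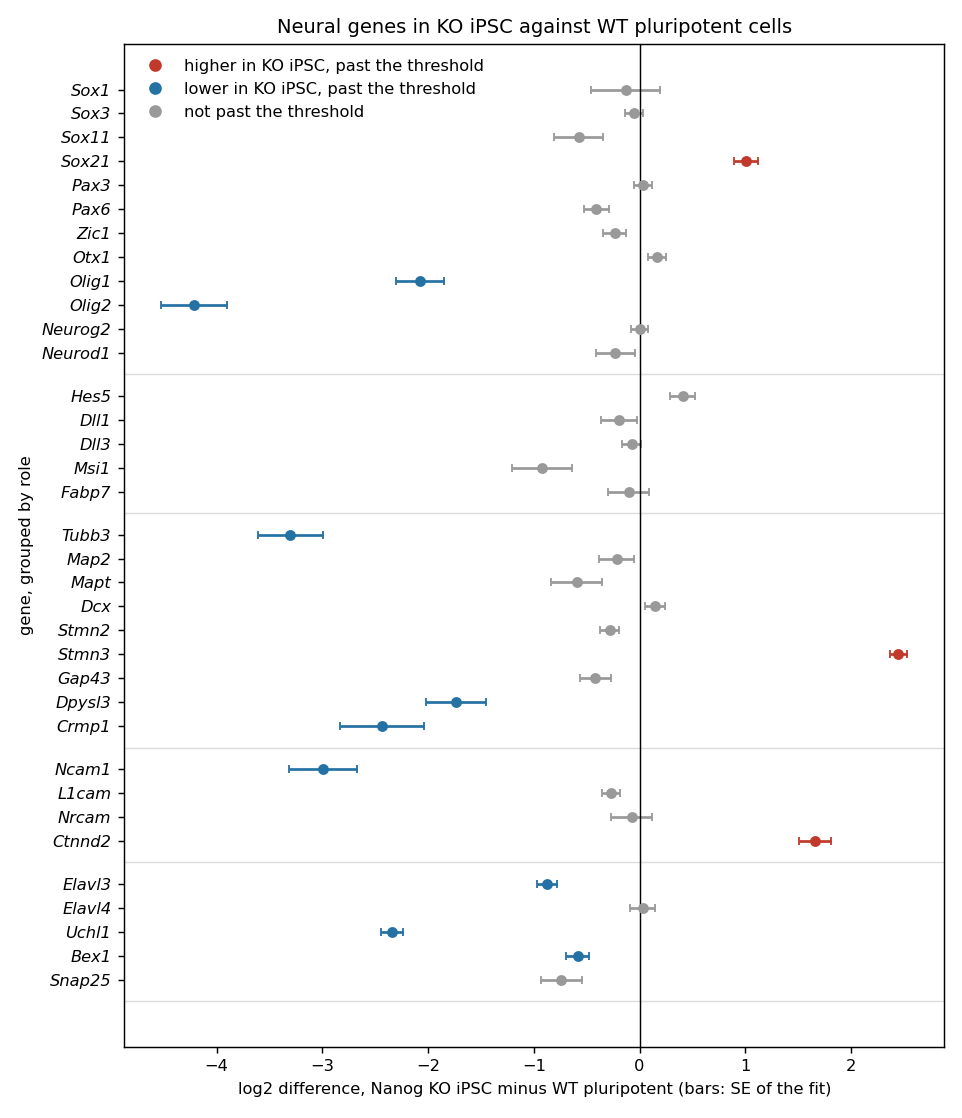
The log2 difference of each neural gene between Nanog KO iPSC (2 arrays) and WT pluripotent cells (3 arrays) is plotted with the SE of the fit as error bars, grouped by role. Olig2 at -4.22 and Stmn3 at 2.45 are the ends of the range, and 23 genes in grey did not pass.

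Among the 12 transcription factors, 2 fell and 1 rose, where 8.81% and 6.89% of all genes did so. Olig2, a basic helix-loop-helix factor of motor neuron and oligodendrocyte progenitors, had log2 levels of 5.78 and 5.74 in KO iPSC, 9.51 and 10.59 in WT iPSC, and 9.82 in WT ESC. Both KO arrays lay under the background yardstick and all 3 WT arrays far above it. It was at least 11.3-fold lower in KO iPSC (fitted difference -4.22, SE 0.31, adjusted p = 0.0015, limma). Its paralog Olig1, which lies on chromosome 16 as well, had levels of 6.82 and 6.83 in KO iPSC, 8.52 and 9.31 in WT iPSC, and 8.87 in WT ESC. Olig1 was 4.22-fold lower (-2.08, SE 0.23, adjusted p = 0.0045, limma), and its KO arrays stayed slightly above background. Both MEF arrays read 5.42 (KO) and 5.93 (WT) for Olig2 and 6.57 (KO) and 6.64 (WT) for Olig1, so the 2 genes were low in fibroblasts.

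Sox21, a SoxB2 factor that counteracts SoxB1 activity in neural progenitors, ran the other way. Its levels were 9.16 and 9.40 in KO iPSC, 8.31 and 8.37 in WT iPSC, and 8.14 in WT ESC. The groups did not overlap, and the gene was 2.01-fold higher in KO iPSC (1.009, SE 0.11, adjusted p = 0.0051, limma). A second, dimmer Sox21 probe set differed by 0.21 in the same direction, and the mean of both gave 0.61. Of the SoxB1 factors, Sox1 gave 6.97 and 6.91 in KO iPSC against 6.44, 7.59 and 7.19 in WT iPSC and WT ESC, so the KO arrays fell inside the WT range. Sox3 differed by -0.05 (SE 0.09). Sox2, a bright SoxB1 factor outside the list of neural genes, differed by -0.22 (SE 0.08, adjusted p = 0.11, limma). None of these SoxB1 genes passed.

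The other transcription factors did not pass. Sox11, a SoxC factor of early neurons, read 6.86 and 6.85 in KO iPSC, 6.96 and 7.70 in WT iPSC, and 7.64 in WT ESC (-0.58, SE 0.23, adjusted p = 0.16, limma). Pax6, a paired-box factor of the forebrain and eye, differed by -0.41 (SE 0.12, adjusted p = 0.074). Zic1 (-0.24), Neurod1 (-0.23), Pax3 (0.03), Otx1 (0.16) and Neurog2 (0.00) lay closer to 0. The proneural factors Neurog2 and Neurod1, which drive progenitors towards neurons, thus had no call in either direction.

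The 5 Notch and progenitor genes gave 0 calls against the 3 WT pluripotent arrays, and 2 had an unadjusted p under 0.05, where 31.5% of all genes had one. Hes5, a target of Notch, read 7.33 and 7.49 in KO iPSC, 6.89 and 6.93 in WT iPSC, and 7.18 in WT ESC. WT ESC lay between KO and WT iPSC, and the difference was 0.41 (SE 0.12, adjusted p = 0.076, limma). The RNA-binding protein Msi1, a marker of neural stem cells, read 8.57 and 8.64 in KO iPSC, 9.12 and 9.35 in WT iPSC, and 10.10 in WT ESC. All WT arrays were higher than both KO arrays, but their spread was wide (-0.92, SE 0.29, adjusted p = 0.087). The Notch ligand Dll1 (-0.19), Dll3 (-0.07, under background on every array) and the fatty acid-binding protein Fabp7 of radial glia (-0.10) did not pass.

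Among the 9 cytoskeletal and growth cone genes, 3 fell and 1 rose, where 8.81% and 6.89% of all genes did so. Tubb3, the neuronal beta-tubulin, had levels of 7.26 and 7.27 in KO iPSC, 11.03 and 10.73 in WT iPSC, and 9.94 in WT ESC. The KO arrays lay more than 2 log2 units below the lowest WT array, a 9.86-fold lower level (-3.30, SE 0.31, adjusted p = 0.0029, limma). Crmp1, a collapsin response mediator protein that acts on growth cone microtubules, read 7.75 and 7.70 in KO iPSC, 9.35 and 10.37 in WT iPSC, and 10.75 in WT ESC (-2.43, SE 0.40, adjusted p = 0.014). Without WT iPSC replicate 2 its adjusted p was 0.052 in limma.

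Dpysl3, of the same protein family as Crmp1, read 7.85 and 7.76 in KO iPSC, 10.05 and 9.52 in WT iPSC, and 9.04 in WT ESC. It was 3.32-fold lower (-1.73, SE 0.28, adjusted p = 0.014, limma). Its other probe set, with a lower mean over the arrays, showed a smaller difference of -0.43, and the mean of both probe sets gave -1.08, so the size depends on the probe set. Without WT iPSC replicate 2 its adjusted p was 0.050, at the threshold and no longer past it.

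Stmn3 and Stmn2 belong to the stathmin family, which binds tubulin and destabilises microtubules, and they did not move alike. Stmn3 read 10.18 and 10.14 in KO iPSC, 7.64 and 7.72 in WT iPSC, and 7.78 in WT ESC. The 3 WT arrays lay close together, and KO iPSC were 5.46-fold higher (2.45, SE 0.08, adjusted p = 0.00027, limma). Stmn2 read 11.59 and 11.66 in KO iPSC, 11.88 and 12.01 in WT iPSC, and 11.83 in WT ESC, a difference of -0.28 (SE 0.09, adjusted p = 0.095). The microtubule-associated proteins Map2 (-0.22, SE 0.17) and Mapt (-0.60, SE 0.24) did not pass. Neither did Dcx (0.14) or Gap43 (-0.42), both under background on every array.

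**Figure D2:**
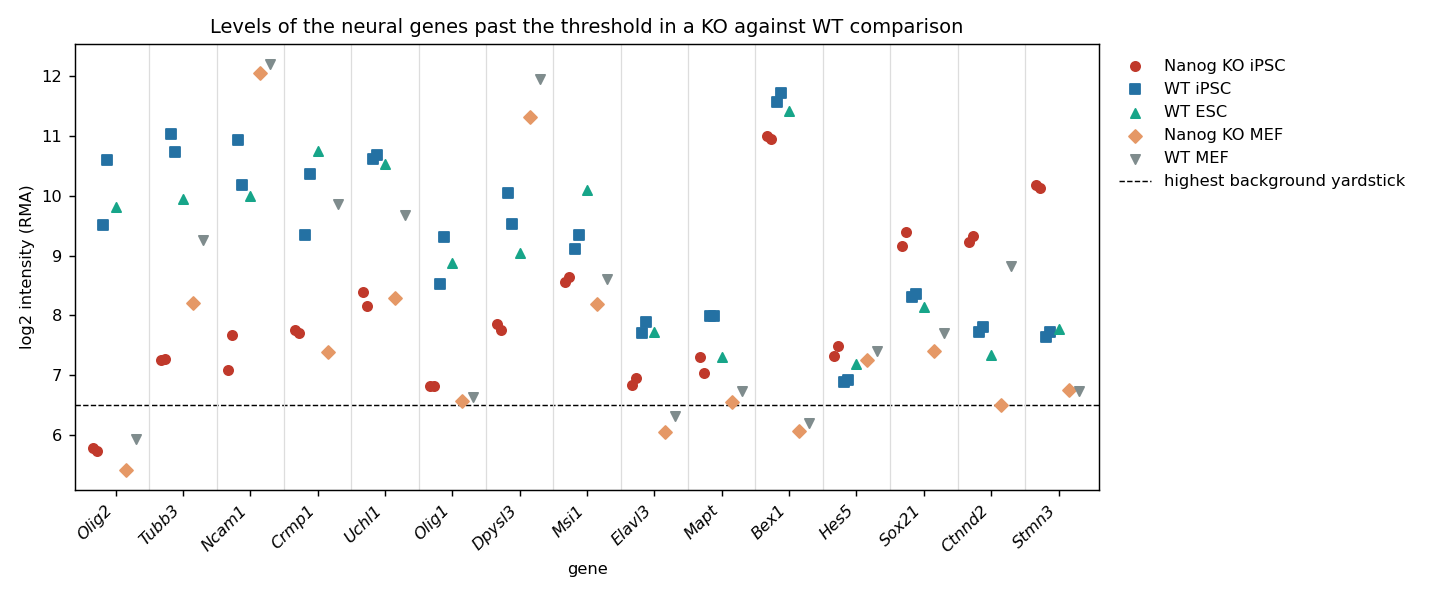
Log2 intensity of the 15 neural genes past the threshold in at least 1 comparison of KO iPSC with WT cells, 1 point per array, ordered by the KO minus WT pluripotent difference, with the highest background yardstick dashed. From Olig2 to Bex1 the KO iPSC points lie below all WT iPSC and WT ESC points, and from Hes5 to Stmn3 above them.

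Of the 4 adhesion genes 1 fell and 1 rose, where 8.81% and 6.89% of all genes did so. Ncam1, the neural cell adhesion molecule, read 7.09 and 7.68 in KO iPSC, 10.94 and 10.18 in WT iPSC, and 10.00 in WT ESC. It was 7.96-fold lower in KO iPSC (-2.99, SE 0.32, adjusted p = 0.0043, limma), with KO and WT arrays more than 2 log2 units apart. Ctnnd2, the neuronal delta-catenin of cell junctions and dendrites, read 9.24 and 9.34 in KO iPSC, 7.72 and 7.80 in WT iPSC, and 7.35 in WT ESC. It was 3.17-fold higher (1.66, SE 0.15, adjusted p = 0.0027). The axonal adhesion molecules L1cam (-0.27, SE 0.09, adjusted p = 0.091) and Nrcam (-0.07, SE 0.19) did not pass.

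Of the 5 remaining genes 3 fell and 0 rose, where 8.81% and 6.89% of all genes did so. Uchl1, an abundant neuronal deubiquitinase, read 8.39 and 8.15 in KO iPSC, 10.61 and 10.68 in WT iPSC, and 10.54 in WT ESC. The WT arrays were tightly grouped and the gene was 5.06-fold lower in KO iPSC (-2.34, SE 0.10, adjusted p = 0.00042, limma). A second, dimmer Uchl1 probe set differed by 0.22 in the opposite direction, and the mean of both gave -1.06. Elavl3, a Hu-family RNA-binding protein of neurons, read 6.83 and 6.96 in KO iPSC, 7.70 and 7.89 in WT iPSC, and 7.73 in WT ESC (-0.88, SE 0.10, adjusted p = 0.0048). Its paralog Elavl4 was under background on every array (0.03, SE 0.12). Snap25, a SNARE protein of synaptic vesicle release, was under background in KO iPSC and did not pass (-0.74, SE 0.19, adjusted p = 0.056). It passed under some alternatives, among them a trended robust variance (adjusted p = 0.0458, limma) and leaving out genes under background on all arrays (0.0499).

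Bex1, a small X-linked protein of brain and early embryo, was bright in all pluripotent cells. Its levels were 11.01 and 10.96 in KO iPSC, 11.58 and 11.71 in WT iPSC, and 11.42 in WT ESC (difference -0.59, SE 0.11, adjusted p = 0.020, limma). All 899 X-linked genes had a median difference of -0.02 in this comparison, and all 22180 genes one of 0.03. The 507 X-linked genes above background on some array had a median of -0.20. The median of all genes under that filter is not given here. A shift of the X chromosome therefore cannot be told apart from a shift of all expressed genes. The part of such a shift in the Bex1 difference was not tested. The other X-linked members, Sox3, Dcx and L1cam, did not pass.

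Against WT iPSC alone, which holds the cell type the same and uses the same KO arrays, 11 neural genes fell and 4 rose, where 9.55% and 6.93% of all genes did so. Tubb3 was 12.3-fold lower in KO iPSC (-3.61, SE 0.12), Olig2 at least 12.0-fold and Ncam1 9.07-fold (-3.18, SE 0.31). Stmn3 was 5.59-fold higher (2.48, SE 0.09), Ctnnd2 2.88-fold (1.52, SE 0.09) and Sox21 1.92-fold (0.94, SE 0.11). Mapt, the tau protein, passed here, with 7.30 and 7.03 in KO iPSC against 7.989 and 7.995 in WT iPSC (-0.82, SE 0.12, adjusted p = 0.013, limma). WT ESC read 7.31 for Mapt, close to KO iPSC. Msi1 fell (-0.63, SE 0.11, adjusted p = 0.022) and Hes5 rose (0.50, SE 0.10, adjusted p = 0.029). With the mean of the Hes5 probe sets the adjusted p was 0.067. The other 9 genes that fell against the WT pluripotent group also fell here.

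These counts rest on both KO iPSC arrays. Without KO iPSC replicate 1 only 3 neural genes passed against WT pluripotent cells (Olig2, Stmn3 and Uchl1), as they did with both KO arrays counted as 1. Without KO iPSC replicate 2 Ncam1 passed as well, which makes 4. Against WT iPSC, 7 passed in each of these settings: Olig2, Tubb3, Ncam1, Dpysl3, Uchl1, Stmn3 and Ctnnd2. The differences called with all arrays kept their direction under every alternative tried. Sox1, not called against WT iPSC with all arrays, depended on which WT iPSC array was kept: it differed by -0.65 without WT iPSC replicate 1 (adjusted p = 0.0056, limma) and by 0.50 without replicate 2 (adjusted p = 0.015).

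How far WT pluripotent cells differed among themselves was asked by setting WT ESC against WT iPSC. In limma 0 of 35 passed, where 0.162% of all genes did (0.0812% in each direction), and 9 had an unadjusted p under 0.05, where 12.2% of all genes had one. The values with the lowest p-values were 7.31 in WT ESC against 7.989 and 7.995 in WT iPSC for Mapt, 10.10 in WT ESC against 9.12 and 9.35 in WT iPSC for Msi1, and 9.94 in WT ESC against 11.03 and 10.73 in WT iPSC for Tubb3. WT ESC had 1 array, and with 1 WT iPSC array left out 4 genes passed (without replicate 1) or 9 (without replicate 2).

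The lower MEF array exceeded the highest of the 3 WT pluripotent arrays in 6 of the 35 neural genes (Zic1, Hes5, Fabp7, Map2, Dpysl3 and Ncam1), where 26.9% of all genes did so. Ncam1 stood at 12.06 in KO MEF and 12.20 in WT MEF, and Dpysl3 at 11.33 and 11.96. Of these 6 genes Ncam1 and Dpysl3 fell in KO iPSC against WT pluripotent cells. The summed intensity of the 20 fibroblast markers, measured on the same arrays, was 4688 and 4870 in KO iPSC, 33805 and 12398 in WT iPSC, and 18815 in WT ESC. Of those markers 19 were likewise higher on both MEF arrays than on any WT pluripotent array, and 13 were lower on both KO iPSC arrays than on any WT pluripotent array. WT iPSC replicate 1 held the highest level of fibroblast markers, Ncam1 and Dpysl3 among the pluripotent arrays, and also of Tubb3 (11.03), which is not among these 6 genes. The same array was the lowest of the WT pluripotent arrays for Olig2 (9.51), Olig1 (8.52), Crmp1 (9.35) and Elavl3 (7.70). Its Uchl1 (10.61) and Bex1 (11.58) lay between those of the other WT pluripotent arrays. WT ESC had a higher fibroblast marker sum than WT iPSC replicate 2. Its Ncam1 (10.00 against 10.18) and Dpysl3 (9.04 against 9.52) were lower. Without WT iPSC replicate 1 the KO minus WT pluripotent difference was -2.71 for Ncam1 (adjusted p = 0.0033, limma) and -1.48 for Dpysl3 (adjusted p = 0.0081). The part of fibroblast RNA in these differences was not tested. The other 7 genes that fell had at least 1 MEF array below a WT pluripotent array, and Olig2, Olig1, Elavl3 and Bex1 were at or near background in MEF. Tubb3 was higher in MEF (8.21 in KO, 9.27 in WT) than in KO iPSC (7.26 and 7.27). Uchl1 (9.68) and Crmp1 (9.87) were higher in WT MEF than in KO iPSC. In KO MEF, Crmp1 (7.39) lay below both KO iPSC arrays and Uchl1 (8.30) between them. The part of fibroblast RNA in the fall of these 7 genes was not tested either.

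**Figure D3:**
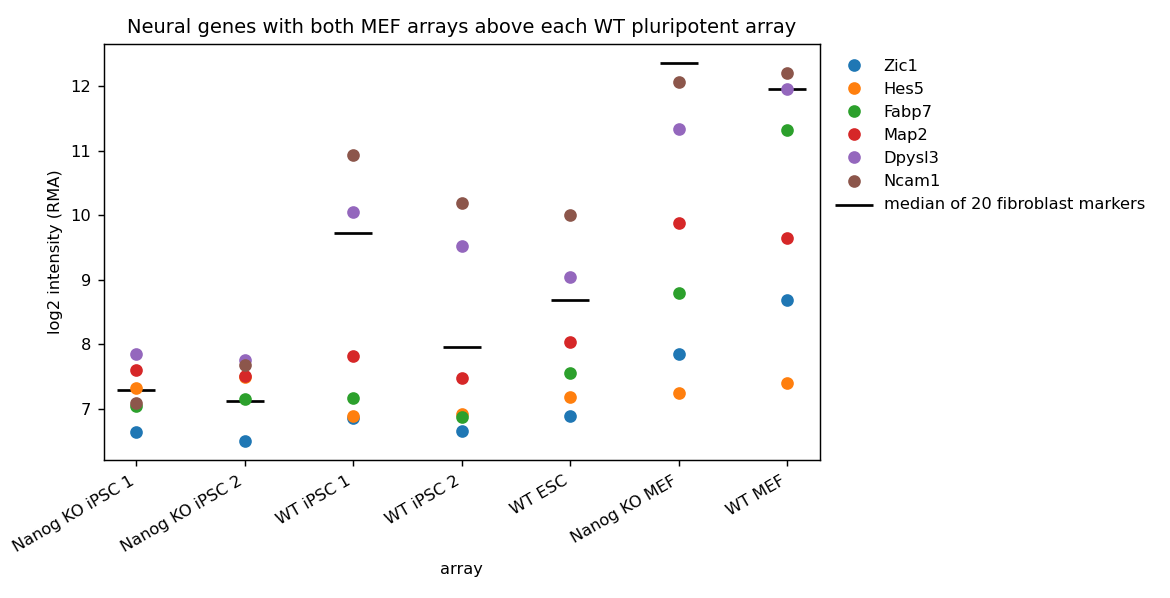
Log2 intensity on each of the 7 arrays of the 6 neural genes that were higher on both MEF arrays than on any WT pluripotent array, with the median of 20 fibroblast markers as black bars. Ncam1 and Dpysl3 are lowest in KO iPSC, where the fibroblast median is 7.29 and 7.13, and highest in MEF.

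To place these genes between the cell types, the iPSC of both genotypes were set against MEF in a fit that also held the genotype. In iPSC 9 neural genes were higher and 5 lower, where 16% and 14.7% of all genes were. In Bex1 the iPSC level exceeded that of MEF at least 30.1-fold (log2 difference 5.18, SE 0.14, adjusted p = 0.00014, limma, 4 arrays against 2), with 6.07 in KO MEF and 6.20 in WT MEF. Stmn2 was 10.6-fold higher (3.41, SE 0.20). Both genes were thus bright in pluripotent cells, although they are known for their roles in neurons. Stmn3 (2.17), Sox1 (at least 1.49-fold), Sox21 (1.25), Elavl3 (at least 1.92-fold), Mapt (0.93) and Msi1 (0.51) also passed. So did Dll3, which was under background on all arrays.

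The 5 genes lower in iPSC were Ncam1 (-3.16), Fabp7 (-2.997), Dpysl3 (-2.85), Map2 (-2.17) and Zic1 (-1.61). Map2, a dendritic microtubule-associated protein, read 7.59 and 7.51 in KO iPSC, 7.81 and 7.47 in WT iPSC, 9.89 in KO MEF and 9.65 in WT MEF. Tubb3 did not pass (0.33, SE 0.57), since KO iPSC lay below both MEF arrays (8.21 in KO and 9.27 in WT) and WT iPSC above them. Crmp1 (0.16, SE 0.29) and Uchl1 (0.47, SE 0.24) did not pass either.

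In MEF the genotypes had 1 array each and were not tested. KO MEF were at least 2-fold below WT MEF in 6 of the 35 neural genes and above in 0, where 1.77% and 2.8% of all genes were (4.56% in either direction). Fabp7 read 8.79 in KO MEF and 11.32 in WT MEF, Crmp1 7.39 and 9.87, and Ctnnd2 6.50 and 8.82. Uchl1 read 8.30 in KO MEF and 9.68 in WT MEF, Tubb3 8.21 and 9.27, and Sox11 7.41 and 8.45. The 6 differences ran from -2.53 to -1.04. The Schwann cell and neural crest markers found had a median of 7.35 in KO MEF and 6.79 in WT MEF, and the part of the cell mix of each fibroblast culture in these values was not tested.

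The KO minus WT difference itself was compared between iPSC and MEF as an interaction. It passed in 10 of the 35 neural genes, 4 more positive in iPSC and 6 more negative, where 3.07% and 5.48% of all genes did so (8.55% in either direction). The balance depended on the scaling, with 4 more positive and 3 more negative when each array was centred on its median. Quantile normalization gave 4 more positive and 2 more negative. Ctnnd2 differed most on the positive side (interaction 3.84, SE 0.16, adjusted p = 0.0034, limma): the KO minus WT difference was 1.52 in iPSC and -2.32 in MEF. Olig2 had the most negative value (-3.78, SE 0.60, adjusted p = 0.029), with both MEF arrays under background. The interaction rests on 1 MEF array per genotype. It passed in 1 neural gene without KO iPSC replicate 1, in 2 without replicate 2, and in 20 without WT iPSC replicate 1.

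**Figure D4:**
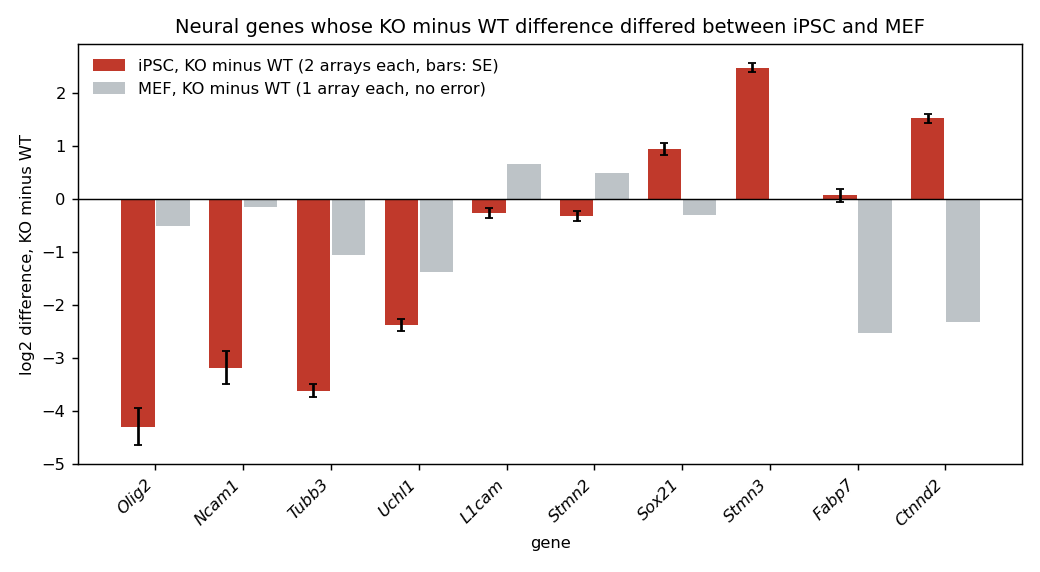
KO minus WT log2 differences in iPSC (2 arrays per genotype, error bars SE) and in MEF (1 array per genotype, no error) for the 10 neural genes that passed the interaction test. Ctnnd2 is at 1.52 in iPSC and -2.32 in MEF, and Stmn3 at 2.48 and 0.01.

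Genes of the same pathways outside the 35 were counted from lists drawn up with them. The counts stand beside 8.81% of all genes that fell and 6.89% that rose in KO iPSC against WT pluripotent cells, and the shares of the neural plate, Notch and neuronal lists lay near these. Of 31 other neural plate and progenitor genes 4 fell and 2 rose, with a median of 0.03. The anterior homeobox genes Otx2 (at least 4.12-fold) and Hesx1 (at least 2.13-fold) fell, with both KO arrays under background, and Zic5 (-1.17) and the intermediate filament nestin, Nes (-0.59), fell as well. The homeobox gene Meis2 read 10.68 and 10.48 in KO iPSC, 7.74 and 8.05 in WT iPSC, and 6.92 in WT ESC (3.01, SE 0.33), and En2 rose by 0.56. Of 25 other Notch and proneural genes 3 fell (Numbl, -1.13; Lfng, -0.69; Mfng, -0.69) and 1 rose (Hey2, 0.69), with a median of 0.00. Lfng and Mfng are Fringe enzymes that modify Notch receptors, Numbl is related to the Notch inhibitor Numb, and Hey2 is a Notch target.

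Of 45 other neuronal genes 5 fell and 5 rose, with a median of -0.11. The G protein subunit Gng3 read 7.44 and 7.31 in KO iPSC, 10.14 and 10.50 in WT iPSC, and 10.77 in WT ESC (-3.09, SE 0.19). The axonal kinesin Kif1a (-1.68), the microtubule-associated protein Map1b (-1.20) and Kif5c (-0.53) fell too. The neurofilament genes Nefl (3.11, SE 0.21) and Nefm (at least 5.32-fold), the GABA-synthesising enzyme Gad1 (0.58) and Rtn1 (0.38) rose. Nefm was under background on all 3 WT pluripotent arrays, so its fold is a lower bound. Of 11 glial genes Aldh1l1, a folate enzyme used as an astrocyte marker, rose (1.80, SE 0.08) and 0 fell. The other 10 glial genes did not pass.

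REST and its corepressors keep neuronal genes silent outside neurons, and of 10 genes of this machinery 2 fell and 0 rose, where 8.81% and 6.89% of all genes did so. Rcor2, a CoREST-family corepressor, read 8.58 and 8.56 in KO iPSC, 11.38 and 11.47 in WT iPSC, and 11.09 in WT ESC (-2.74, SE 0.13, adjusted p = 0.00053, limma). The WT arrays lay more than 2 log2 units above the KO arrays. Ehmt2, a histone methyltransferase, fell by 0.39 (SE 0.09). Rest itself differed by -0.08 (SE 0.19). It did not pass, and was singled out after its value was seen.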

How the data were processed

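The authors deposited RMA intensity values per probe set, in linear units. The submitters' processing notes name Affymetrix Expression Console, version 1.3.0.187. A genome build is not given in the sources used here. The plan had assumed values already in log2, so log2 was taken here from the deposited intensities, with no further normalization. Of 33649 probe sets, 23521 had 1 gene symbol in the platform annotation, 1814 several and 8314 none. Each gene was read from its brightest probe set (by mean over 7 arrays), which gave 22180 genes. Chromosomes came from RefSeq (GRCm38.p6), matched by Entrez identifier. No column belonged to another sample (0 unmapped).

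Differences were tested with limma 3.58.1 in R 4.3.3 (lmFit, eBayes), two-sided, with Benjamini-Hochberg adjustment over all genes, on scripts tested on simulated data. KO iPSC against WT pluripotent cells used 5 arrays. Both other pluripotent comparisons (KO with WT iPSC, WT ESC with WT iPSC) and the interaction used all 7 arrays with 1 coefficient per group, and iPSC against MEF used 6 arrays with genotype as a covariate. A fold is written "at least" where every array on the dim side lay under its yardstick, and is computed against the mean yardstick of those arrays. No dim gene was left out, and precision is limited by the small number of arrays.

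The members and lists were chosen with earlier results of these data known. All 35 genes were accounted for, and values per array were given for those past the threshold in a KO against WT comparison and for some others. From the other lists, at most 4 genes per direction that passed with the largest differences were named, besides Rest and Sox2. Alternatives were median centring, quantile normalization, a trended robust variance, 2 filters on dim genes, the mean of probe sets, arrays left out, the KO iPSC arrays counted as 1 and a replicate block. Of the symbols in the lists, those without a 1-symbol probe set were not analysed here.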

Additional observations from a re-analysis of the deposited data

Results flagged for a closer look

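In 10 neural genes the KO minus WT difference differed between iPSC and MEF by the interaction test (limma, adjusted p under 0.05), with 1 MEF array per genotype. The interaction was more positive in iPSC for Ctnnd2 (3.84), Fabp7 (2.60), Stmn3 (2.48) and Sox21 (1.25). Fabp7 differed by 0.07 in iPSC and by -2.53 in MEF, so its value comes from the MEF pair. It was more negative in iPSC for Olig2 (-3.78), Ncam1 (-3.04), Tubb3 (-2.56), Uchl1 (-0.99), L1cam (-0.93) and Stmn2 (-0.82). In L1cam and Stmn2 the KO minus WT differences were -0.27 and -0.32 in iPSC, which did not pass, and 0.66 and 0.50 in MEF, which had no test. The adjusted p-values of Uchl1, L1cam and Stmn2 were 0.046, 0.039 and 0.047 in limma, and with the mean of its probe sets Uchl1 gave -0.36 (adjusted p = 0.215).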

How the results depend on the processing

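For the 51 differences called among the neural genes, 562 repeats under alternatives kept the direction in every case and the call in 464. Of the 98 repeats that lost the call, 80 left out or merged KO iPSC arrays. Leaving out 1 array gave 3 to 17 called neural genes for KO iPSC against WT pluripotent cells (12 with all arrays), 7 to 22 against WT iPSC (15), 0 to 9 for WT ESC against WT iPSC (0), 7 to 14 for iPSC against MEF (14) and 1 to 20 for the interaction (10). Without WT iPSC replicate 1 the interaction count was 20. Without KO iPSC replicate 1 or 2 iPSC against MEF gave 7 or 8 genes and the interaction 1 or 2. With the KO iPSC arrays counted as 1 the counts were 3 and 7 for the first 2 comparisons, where fewer residual degrees of freedom remain. Quantile normalization left 6 in the interaction (4 more positive, 2 more negative) and median centring 7 (4 and 3), against 4 and 6 as deposited, and the cause was not tested. With an array left out, 1 iPSC pair alone sets the spread of the 7-array fits, and the KO pair was closer (SD of gene differences 0.15) than the WT pair (0.32). Scaling moved the balance over all genes: rising genes were 43.9% of the calls in KO iPSC against WT pluripotent cells as deposited, 54.1% after median centring and 53.0% after quantile normalization. Among the neural genes it stayed at 3 up and 9 down after centring and was 4 up and 9 down after quantile normalization.

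The replicate numbers of the iPSC arrays do not pair them (correlation 0.02 between genotypes, across genes), and with the replicate number as a block 15 neural genes passed in KO against WT iPSC, as without it. The count of neural genes higher on both MEF arrays than on any WT pluripotent array was 6 to 7, and that of neural genes at least 2-fold apart between the MEF arrays stayed at 6 under both scalings.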

Other observations

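Markers of cells other than fibroblasts were counted in KO iPSC against WT pluripotent cells. Of 6 macrophage markers 0 passed in limma and 3 had an unadjusted p under 0.05, where 15.7% of all genes passed and 31.5% had such a p. Of the 4 Schwann cell and neural crest markers found, the receptor kinase Erbb3 fell, with 8.12 and 8.18 in KO iPSC, 9.82 and 9.62 in WT iPSC, and 9.16 in WT ESC (-1.38, SE 0.20, adjusted p = 0.0095, limma). Of 10 pluripotency markers Utf1 (-1.18) and Tdgf1 (-0.48) fell.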
